A study of Mus musculus with 21 samples.

Results

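The Bcl2 family genes described here are 10 of the 55400 genes in the count table, chosen by symbol: the survival genes *Bcl2*, *Bcl2l1*, *Bcl2l2* and *Mcl1*, the pore-forming effectors *Bak1* and *Bok*, and the BH3-only death genes *Bid*, *Bcl2l11*, *Bmf* and *Hrk*. The p53-driven relatives *Bax*, *Bbc3* and *Pmaip1* were left out of the choice. Expression was measured by poly-A RNA-seq of bulk cultures in which C57BL/6 mouse embryonic stem cells (mESCs) of WT genotype were directed to hypaxial motor column (HMC) motor neurons (MNs). The mESCs had been grown on Mitomycin-C treated mouse embryonic fibroblasts, were aggregated into embryoid bodies, and received 1 µM retinoic acid and 0.5 µM of the Sonic Hedgehog agonist SAG from day 2, with 5 µM of the Notch pathway inhibitor DAPT added at day 4. Untreated cultures were collected at day 4 (D4, MN progenitors), 8 h later (D4H8, proneural MNs), at day 5 (D5, newborn MNs) and at day 6 (D6, maturing MNs). Cultures treated with GSKJ4, an inhibitor of the H3K27 demethylase Kdm6b, were collected at D4H8, D5 and D6 after 1 day with the inhibitor, so all groups share the stem cell line, the feeders and the patterning factors given at day 2. Exposure differed by stage: D4 cultures were collected at the time DAPT was added, and at day 5 the medium was changed to ADFNK medium, with DAPT, whose listed components include neither retinoic acid nor SAG. Stage therefore cannot be told apart from these changes of medium. The dose of GSKJ4 is not given in the sources used here. Each of the 7 groups had 3 biological replicates, 21 libraries in all.

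Proteins of the Bcl2 family decide whether the outer mitochondrial membrane is opened, the step that commits a cell to intrinsic apoptosis. Survival members hold the effectors in check, effectors such as Bak1 form the pore, and BH3-only members either neutralise the survival proteins or activate the effectors directly. Motor neurons are produced in excess in the embryo and many are lost by apoptosis as they come to depend on trophic support, which is why the balance of this family is followed in MN development. mRNA levels show only part of this balance, because Bid is activated by cleavage, Mcl1 protein is short-lived, and several BH3-only proteins are controlled by phosphorylation.

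The promoter windows of 2 members are shown because *Hrk* carried the largest change between stages and *Mcl1* the highest level in every library. The windows are RefSeq sequences of GRCm38.p6 and run from 250 to 17 bases before the annotated start. The *Hrk* window lies at chr5:118169514-118169747 on the + strand, directly before the first exon of the coding transcript and inside an intron of a longer non-coding transcript. The *Mcl1* window lies at chr3:95658471-95658704 on the + strand, upstream of the first exon. Capitals mark the GC box (GGGCGG, or CCGCCC on the other strand), a motif bound by Sp-family factors.
Hrk: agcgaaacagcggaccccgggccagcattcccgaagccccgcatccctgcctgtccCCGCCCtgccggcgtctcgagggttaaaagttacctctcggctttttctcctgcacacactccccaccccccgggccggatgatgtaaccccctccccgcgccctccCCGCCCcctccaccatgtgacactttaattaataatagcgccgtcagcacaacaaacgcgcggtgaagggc
Mcl1: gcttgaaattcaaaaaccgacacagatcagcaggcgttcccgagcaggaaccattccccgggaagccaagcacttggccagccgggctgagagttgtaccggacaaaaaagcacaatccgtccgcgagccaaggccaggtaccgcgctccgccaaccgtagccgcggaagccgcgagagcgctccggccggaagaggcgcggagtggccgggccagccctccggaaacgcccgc
The *Hrk* window held 2 GC boxes and the *Mcl1* window none. Over all 32851 RefSeq promoter windows, 30.4% held at least 1 GC box. Both windows were rich in CpG dinucleotides, with 20 in *Hrk* and 26 in *Mcl1* against a median of 5 over all windows, and their GC content was 63.7% and 65.4% against a median of 52.1%. CCAAT (32.5% of all windows), TATAAA (11.9%), the cAMP response element TGACGTCA (1.35%), the AP-1 motif TGANTCA (6.45%) and the forkhead motif GTAAACA (2.96%) were searched for on both strands, and no motif overlapped another in these windows. None of these 5 was found in either window. Among the other members, whose 13 windows were also matched, *Bcl2*, *Bcl2l2*, *Bid* and *Bcl2l11* held GC boxes, CCAAT was found at *Bmf* and *Bcl2l11*, and 1 of the 2 *Bcl2l11* windows held the forkhead motif.

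Reads counted on genes ranged from 14982115 to 34383842 per library (median 16238435), and D4H8 replicate 1 was the deepest. The share of counts from the mitochondrial genome ranged from 0.335% in D5 replicate 1 to 5.325% in GSKJ4-treated D4H8 replicate 2. GSKJ4-treated D5 replicate 2 had 39381 genes at 0 against 29339 to 32805 in the others. The stage labels were checked against marker genes in FPKM. The summed level of 12 postmitotic MN markers ranged from 44.5 to 89.1 at D4 and from 3667 to 4259 at D6, and that of 7 dividing cell markers from 524 to 590 at D4 and from 39.7 to 118 at D6. The summed level of 7 MN progenitor markers did not separate the stages in this way, with 156 to 235 at D4, 231 to 319 at D4H8, 160 to 213 at D5 and 154 to 220 at D6. Its genes went apart from D4 to D6. *Olig2* (means of 47.5 and 1.24), *Pax6* (7.29 and 0.240), *Sox2* (66.1 and 17.9), *Hes5* (9.85 and 0.507) and *Sox1* (11.5 and 3.27) were lower at D6. *Nes* (19.5 and 21.05) and *Nkx6-1* (27.2 and 143) were not, and *Nkx6-1* gave most of the mean sum of 188 at D6. Of 8 interneuron markers 1 at most had a mean of at least 1 FPKM in any group, of 6 glial markers 2 or 3, and *Sox14* was at 0 in every library of 4 groups.

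All 10 members were detected in all 21 libraries, from 59 reads of *Hrk* to 8601 reads of *Mcl1*, and all passed the filter on low counts in every comparison. FPKM, which is scaled by gene length and depth, allows levels of different genes to be set side by side. *Mcl1* stood far above the rest in every group. At D4 the mean FPKM was 79.3 for *Mcl1*, 19.8 for *Bak1*, 13.4 for *Bcl2l1*, 11.4 for *Bid*, 10.6 for *Bmf*, 8.70 for *Bcl2l11*, 8.54 for *Bok*, 7.32 for *Bcl2l2*, 1.08 for *Hrk* and 0.633 for *Bcl2*. The libraries of *Mcl1*, *Bak1* and *Bcl2l1* were separate from each other, while each neighbouring pair from *Bcl2l1* down to *Bcl2l2*, and *Hrk* with *Bcl2*, overlapped. At D6 the order was *Mcl1* (64.5), *Bcl2l1* (21.9), *Hrk* (21.7), *Bcl2l2* (9.84), *Bcl2l11* (9.23), *Bak1* (7.87), *Bmf* (6.19), *Bid* (6.09), *Bok* (5.26) and *Bcl2* (1.30). *Hrk* had moved from the ninth to the third place and could not be separated from *Bcl2l1*, whose range of 19.1 to 25.2 lay inside the *Hrk* range of 17.5 to 28.1. Each neighbouring pair from *Bcl2l2* down to *Bok* overlapped at D6, and *Bcl2* lay below all others.

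**Figure D1:**
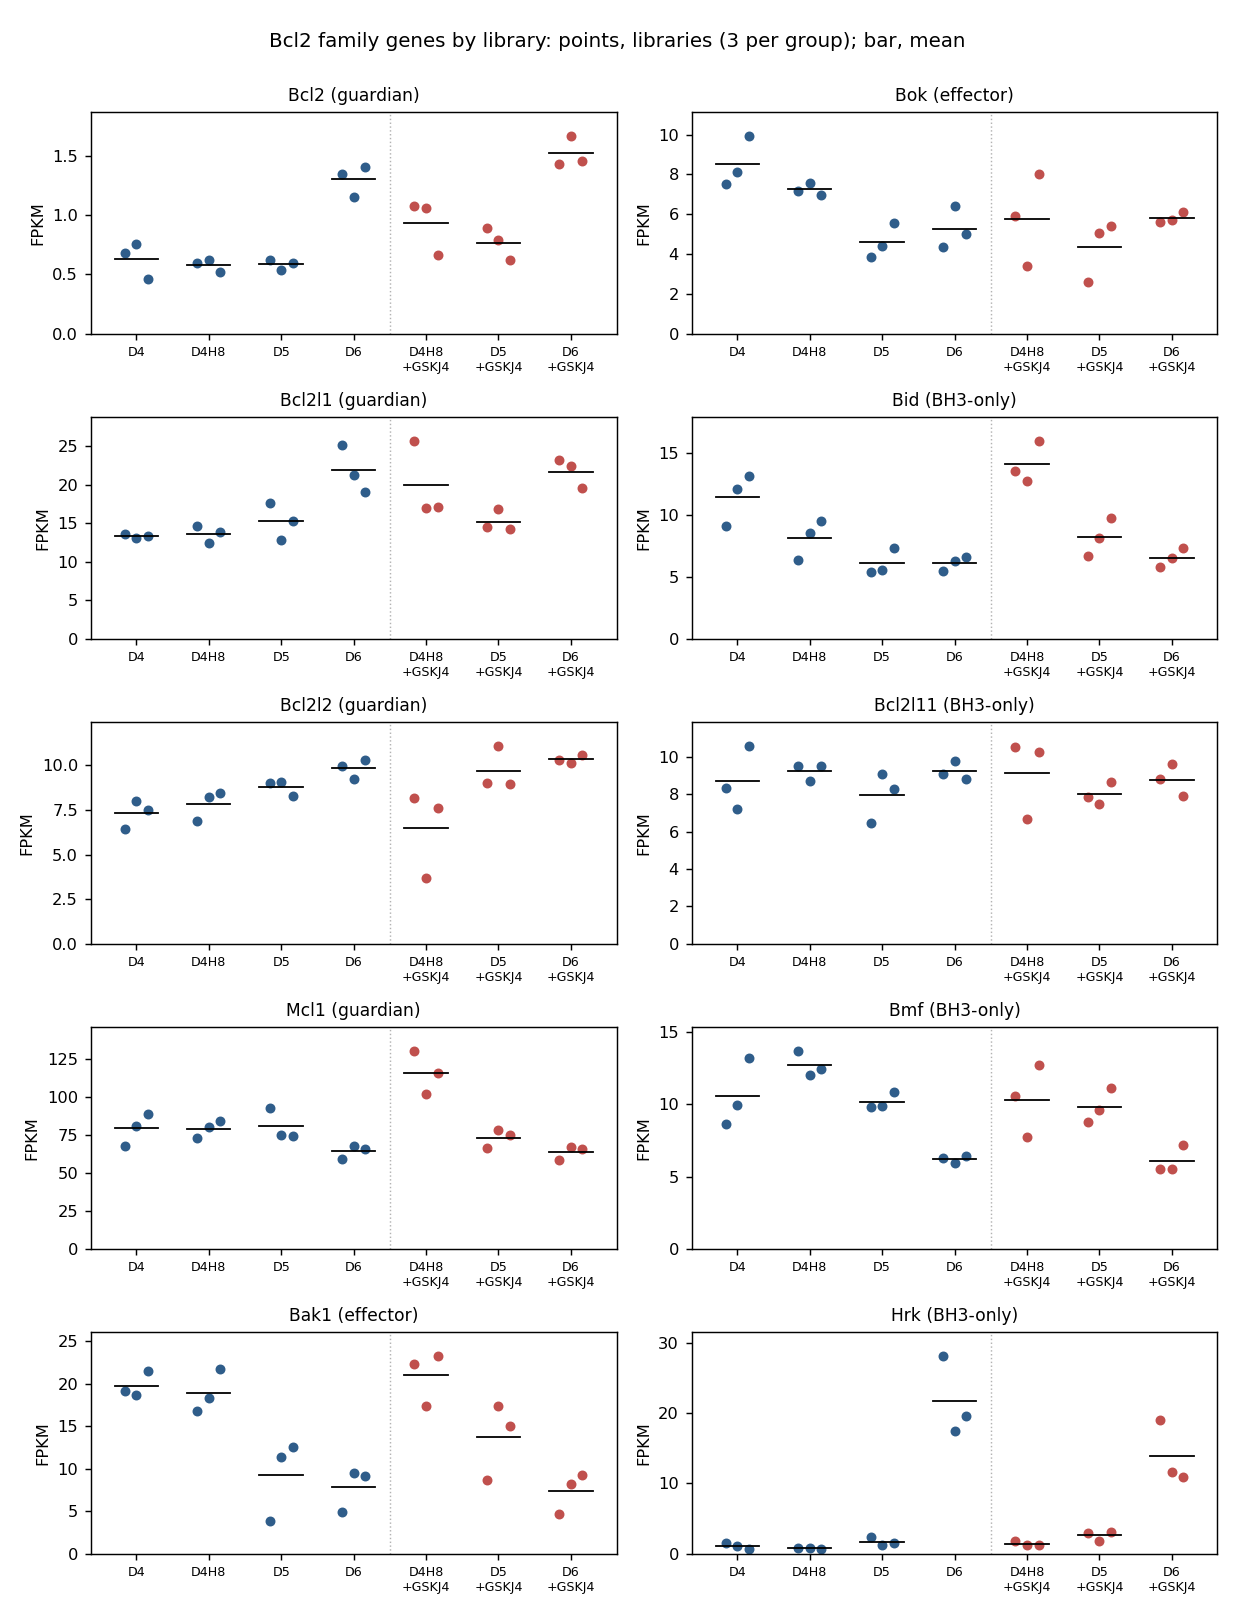
FPKM (y axis, linear from 0, scale differs by gene) of the 10 members in the 7 groups (x axis). Points are the 3 libraries of a group, blue untreated and red GSKJ4, and bars are means. *Hrk* sits at or below 3.05 in every library before D6 and between 10.9 and 28.1 in the 6 D6 libraries, and *Bak1* falls from a mean of 19.8 at D4 to 7.87 at D6.

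The first question was which of these genes changed over the whole course, from progenitors at D4 to maturing MNs at D6. Of the 10 members, 4 rose (*Hrk*, *Bcl2*, *Bcl2l1* and *Bcl2l2*) and 4 fell (*Bak1*, *Bid*, *Bmf* and *Bok*) by edgeR's quasi-likelihood test at an adjusted p under 0.05. Over all 17519 genes tested, 32.9% were higher and 31.0% lower by the same rule, so calls on both sides were common in this comparison. The libraries of the 8 called members did not overlap between D4 and D6, which was also true of 69.3% of all genes. The median log2 fold change was -0.04 for the members and -0.04 for all genes. In these bulk samples, fewer cells of a type and less RNA per cell cannot be told apart.

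Among the survival genes, *Bcl2*, the founding member and the least abundant of the 4, was measured at 0.68, 0.76 and 0.46 FPKM at D4 and 1.35, 1.15 and 1.41 at D6. The D6 libraries all lay above the D4 libraries, and the log2 fold change was 1.09 (SE 0.23, adjusted p = 0.0008), a 2.13-fold rise. *Bcl2l1*, which encodes Bcl-xL and from which the gene-level counts do not separate the shorter isoform Bcl-xS, read 13.6, 13.1 and 13.4 FPKM at D4 and 25.2, 21.2 and 19.1 at D6. Its groups did not overlap either, and it rose 1.71-fold (log2 fold change 0.78, SE 0.16, adjusted p = 0.000673). *Bcl2l2*, which encodes the survival protein Bcl-w, went from 6.44, 8.01 and 7.50 FPKM to 9.94, 9.25 and 10.3. It rose 1.41-fold (log2 fold change 0.50, SE 0.12, adjusted p = 0.00218) without overlap. *Mcl1*, a survival protein with rapid turnover, did not pass the test. Its values were 67.9, 81.1 and 89.0 FPKM at D4 and 59.4, 68.0 and 66.0 at D6, the lowest D4 library lay inside the D6 range, and the log2 fold change was -0.23 (95% interval -0.49 to 0.03, adjusted p = 0.11). With upper-quartile scaling it passed, at -0.38 (adjusted p = 0.0138), in a setting that shifted the median of all genes by -0.15.

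Both effectors fell. *Bak1*, which forms pores in the outer mitochondrial membrane, read 19.1, 18.7 and 21.5 FPKM at D4 and 4.94, 9.55 and 9.11 at D6, a 2.42-fold fall (log2 fold change -1.28, SE 0.32, adjusted p = 0.00319). All D6 libraries lay well below D4, and D6 replicate 1 was the lowest of them. *Bok*, an effector-like member found largely at the endoplasmic reticulum, read 7.53, 8.14 and 9.94 FPKM at D4 and 4.36, 6.42 and 4.99 at D6. It fell 1.55-fold (log2 fold change -0.63, SE 0.18, adjusted p = 0.00836), again without overlap.

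The 4 BH3-only genes went 3 ways. *Hrk* (harakiri), a BH3-only gene known from neurons deprived of trophic factors, read 1.48, 1.08 and 0.69 FPKM at D4 and 28.1, 17.5 and 19.6 at D6. Every D6 library was more than 10 times any D4 library, and the fitted rise was 20.5-fold (log2 fold change 4.36, SE 0.34, adjusted p = 9.16e-08). *Bid*, which links caspase-8 to the mitochondrion, fell 1.78-fold (log2 fold change -0.83, SE 0.17, adjusted p = 0.000543), from 9.04, 12.1 and 13.1 FPKM to 5.42, 6.28 and 6.56. Its 3′ end overlaps *Bcl2l13* on the opposite strand, which had 1539 to 4428 reads per library, and the strand used in counting was not stated, so the level of *Bid* is uncertain. *Bcl2l13* itself had a log2 fold change of -0.16 (adjusted p = 0.212). *Bmf*, which is held at the cytoskeleton in healthy cells, fell 1.62-fold (log2 fold change -0.70, SE 0.13, adjusted p = 0.000338), from 8.62, 9.97 and 13.2 FPKM to 6.25, 5.91 and 6.42. *Bcl2l11*, which encodes Bim and binds all survival members, overlapped between D4 (8.32, 7.19 and 10.6 FPKM) and D6 (9.09, 9.77 and 8.83). Its log2 fold change was 0.15 (95% interval -0.16 to 0.47, adjusted p = 0.373). The interval excludes changes of the size estimated for the other BH3-only genes. The smallest of these estimates, for *Bmf*, had its own 95% interval of -0.98 to -0.42.

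**Figure D2:**
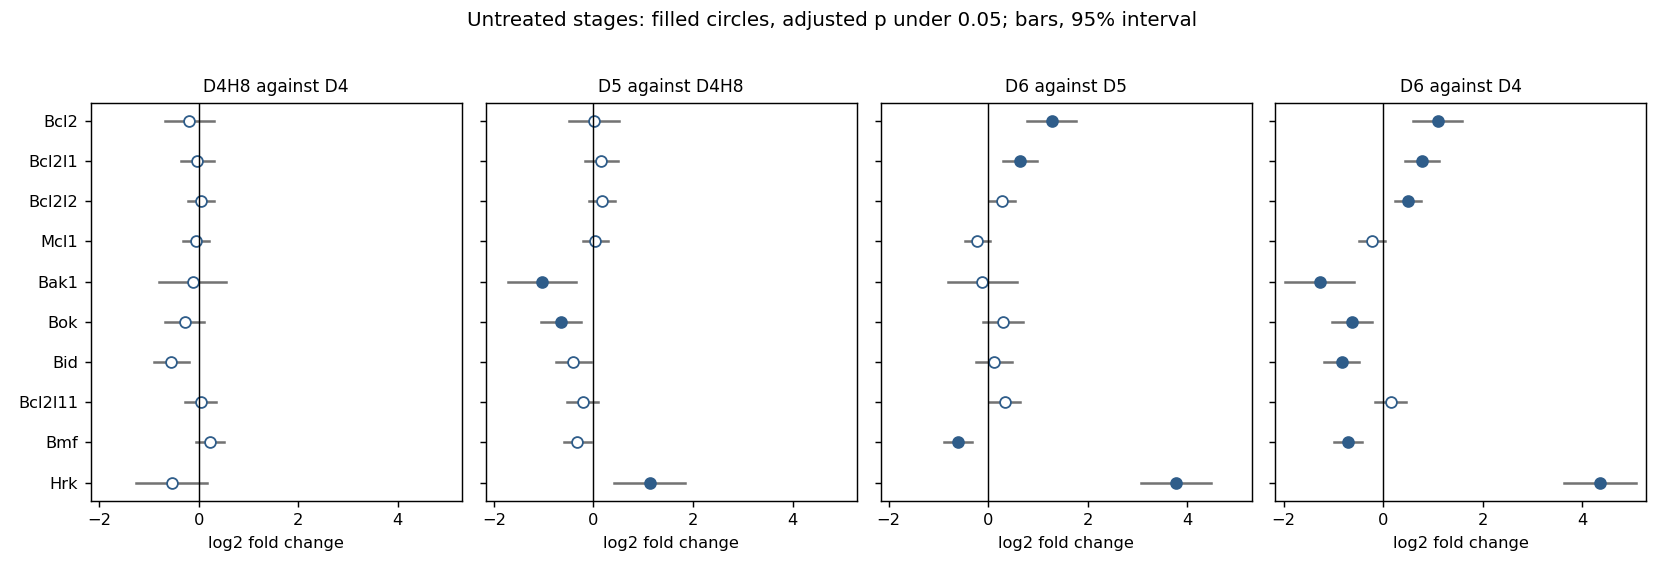
Log2 fold change (x axis) of each member (y axis) in the 4 untreated stage comparisons, with 95% intervals as bars. Filled circles passed an adjusted p of 0.05: none at D4H8 against D4, 3 at D5 against D4H8, 4 at D6 against D5 and 8 at D6 against D4, with *Hrk* farthest to the right at 4.36.

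The single steps place these changes in time. In the 8 h after D4 no member was called by edgeR, where 4.06% of all genes were higher and 0.32% lower. At an unadjusted p under 0.05 the count was 1, against 16.5% of all genes, and DESeq2 called 1, against 7.02% of all genes. Both times this was *Bid*, with 9.04, 12.1 and 13.1 FPKM at D4 and 6.31, 8.51 and 9.48 at D4H8, overlapping ranges, a log2 fold change of -0.54 and an edgeR adjusted p of 0.0879. The log2 fold changes of the 10 members ran from -0.54 to 0.23 in this step.

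From D4H8 to D5, *Hrk* rose while *Bak1* and *Bok* fell, against 17.2% of genes higher and 10.5% lower overall. *Bak1* read 16.8, 18.3 and 21.8 FPKM at D4H8 and 3.82, 11.3 and 12.5 at D5, a 2.06-fold fall (log2 fold change -1.04, SE 0.32, adjusted p = 0.0255). *Bok* went from 7.18, 7.59 and 6.96 FPKM to 3.87, 4.41 and 5.58 (log2 fold change -0.65, SE 0.19, adjusted p = 0.0181). *Hrk* went from 0.82, 0.85 and 0.69 FPKM to 2.44, 1.25 and 1.5, a 2.19-fold rise (log2 fold change 1.13, SE 0.33, adjusted p = 0.0198). None of these 3 genes overlapped between the stages, nor did 43.1% of all genes, and single libraries decided the calls. Without D4H8 replicate 2 all 3 were lost (adjusted p = 0.0502 for *Hrk*, 0.0535 for *Bak1* and 0.0608 for *Bok*), without D4H8 replicate 3 *Hrk* and *Bak1* were lost (0.0699 and 0.0801), and without D5 replicate 1 *Hrk* and *Bok* were lost (0.118 and 0.0691, with *Hrk* at a log2 fold change of 0.77). *Bak1* without D5 replicate 1 was still called, at a log2 fold change of -0.68 (adjusted p = 0.0373). *Bid* (log2 fold change -0.41) missed the threshold at an adjusted p of 0.0834 and passed at 0.0313 with a replicate block. *Bmf* (log2 fold change -0.32, adjusted p = 0.0795) did not overlap between the stages, with 12.05 to 13.71 FPKM at D4H8 and 9.83 to 10.9 at D5.

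The step from D5 to D6 carried the rise of *Bcl2* and *Bcl2l1* and most of the rise of *Hrk*. Of the 10 members 3 rose and 1 fell, against 19.2% higher and 15.1% lower over all genes. *Hrk* rose 13.6-fold in this 1 day, from a mean of 1.73 ± 0.627 FPKM (SD, n = 3) to 21.7 ± 5.64 (log2 fold change 3.77, SE 0.33, adjusted p = 3.14e-06). *Bcl2* stayed between 0.46 and 0.76 FPKM in all 9 untreated libraries up to D5 and rose 2.41-fold at D6 (log2 fold change 1.27, SE 0.23, adjusted p = 0.00087). *Bcl2l1* rose 1.56-fold (log2 fold change 0.64, SE 0.16, adjusted p = 0.00682), from 17.6, 12.8 and 15.3 FPKM at D5 to 25.2, 21.2 and 19.1. *Bmf* fell 1.52-fold (log2 fold change -0.60, SE 0.13, adjusted p = 0.00298), from 9.83 to 10.9 FPKM at D5 to 5.91 to 6.42 at D6. *Bak1* and *Bok*, whose falls came before D5, had log2 fold changes of -0.12 and 0.30 in this step with adjusted p of 0.805 and 0.24.

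*Bak1* levels differed between replicates of the later stages along with markers of other cells. At D5, replicate 1 had 3.82 FPKM of *Bak1* against 11.3 and 12.5 in the others, a summed level of 7 pluripotency markers of 55.4 against 147 and 123, and a summed level of the dividing cell markers of 169 against 250 and 256. At D6, replicate 1 had 4.94 FPKM of *Bak1* against 9.55 and 9.11, pluripotency markers at 14.9 against 115 and 104, and dividing cell markers at 39.7 against 99.0 and 118. The GSKJ4-treated replicate 1 libraries of D5 and D6 were again lowest for *Bak1*, at 8.71 and 4.73, and for the pluripotency markers, at 38.8 and 16.4. At untreated D4H8 replicate 1 was also lowest for both, at 16.8 and 57.9. This did not hold at D4 or in treated D4H8. There replicate 1 was lowest for the pluripotency markers, at 125 and 115, but replicate 2 was lowest for *Bak1*, at 18.7 and 17.4. From D4 to D6 the summed pluripotency markers went from a range of 125 to 298 to one of 14.9 to 115. All 7 stayed at a mean of at least 1 FPKM. *Dppa5a* gave most of the mean sum at D4 (162 of 220) but not at D6 (35.9 of 78.0). *Nanog* (20.4 and 9.19 FPKM), *Zfp42* (9.20 and 3.37), *Pou5f1* (12.1 and 9.34) and *Esrrb* (3.78 and 3.18) were also lower at D6. *Utf1* (6.94 and 10.6) and *Tdgf1* (5.09 and 6.55) were higher. The part of pluripotent or dividing cells in the fall of *Bak1*, *Bok*, *Bid* and *Bmf* was not tested. Summed markers of feeder fibroblasts, of which 3 of 8 had a mean of at least 1 FPKM at D4 and 4 at D6, ranged from 4.41 to 17.7 at D4 and from 12.04 to 27.38 at D6.

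The make-up of the survival genes shifted at D6. *Mcl1* gave 78.7% ± 2.03 (SD, n = 3) of the summed FPKM of the 4 survival genes at D4, 78.2% ± 1.17 at D4H8, 76.6% ± 0.970 at D5 and 66.1% ± 3.62 at D6. The highest *Mcl1* share at D6, 68.3%, lay below the lowest share of the earlier untreated stages, 75.5%. *Bcl2l1* gave 13.4% ± 1.72 at D4 and 22.4% ± 3.43 at D6, *Bcl2l2* 7.28% ± 0.490 and 10.1% ± 0.724, and *Bcl2* 0.641% ± 0.194 and 1.34% ± 0.162. The sum itself was 101 ± 11.04 FPKM at D4 and 97.5 ± 1.94 at D6, with overlapping libraries. The summed level of the 2 effectors went from 28.3 ± 2.72 to 13.1 ± 3.44. Among the 4 BH3-only genes, *Hrk* gave 3.60% ± 1.78 of the summed FPKM at D4 and 49.7% ± 6.93 at D6, and their sum went from 31.8 ± 5.25 to 43.2 ± 4.99. These shares are a description of mRNA and carry no test.

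**Figure D3:**
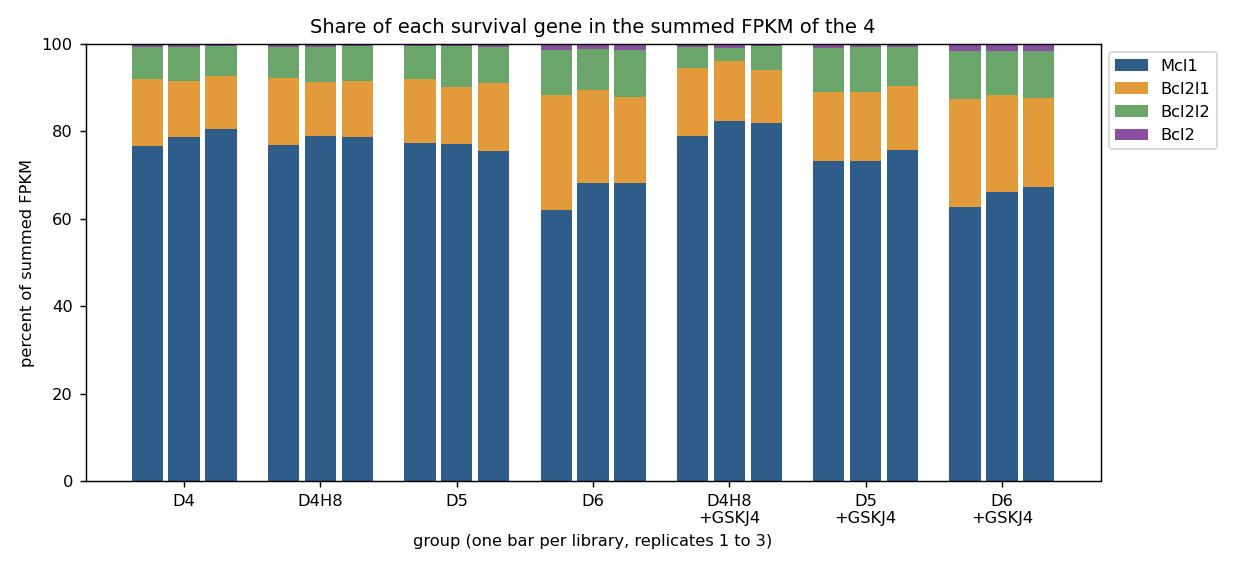
Percent (y axis, 0 to 100) of the summed FPKM of *Mcl1*, *Bcl2l1*, *Bcl2l2* and *Bcl2* in each library (x axis, replicates 1 to 3 within each of the 7 groups). *Mcl1* takes 75.5% or more in every untreated library up to D5 and 61.9% to 68.3% at D6, where the *Bcl2l1* band is widest.

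Treatment with GSKJ4 asks how far this inhibitor changes these genes at each stage. Whether an effect ran through Kdm6b was not tested in these libraries. At D4H8 no member passed edgeR's test, where 3.96% of all genes were called. At an unadjusted p under 0.05 there were 4 (*Bid*, *Mcl1*, *Hrk* and *Bcl2l1*), all with higher values under GSKJ4, against 25.1% of all genes at that threshold, and DESeq2 called 1, against 12.8% of all genes. *Bid* read 6.31, 8.51 and 9.48 FPKM in untreated and 13.51, 12.74 and 15.95 in treated libraries, a 1.70-fold difference (log2 fold change 0.76, SE 0.20, edgeR adjusted p = 0.0612). It passed with DESeq2 (adjusted p = 0.0175). *Bcl2l13*, which overlaps it, had a log2 fold change of 0.08 (adjusted p = 0.772). *Mcl1* read 73.2, 80.2 and 84.2 FPKM untreated and 130.6, 101.87 and 115.75 treated (log2 fold change 0.51, SE 0.16, adjusted p = 0.0963). Its treated libraries at this stage were the 3 highest of all 21. *Hrk* was at 0.69 to 0.85 FPKM untreated and at 1.17 to 1.81 treated (log2 fold change 0.82, SE 0.28, adjusted p = 0.119), and *Bcl2l1* at 12.5 to 14.6 and 17.0 to 25.7 (log2 fold change 0.50, SE 0.20, adjusted p = 0.159). *Bcl2*, at 0.52 to 0.62 FPKM and 0.66 to 1.08, had a log2 fold change of 0.65 (SE 0.31, adjusted p = 0.22). These 5 genes did not overlap between treated and untreated libraries, and neither did 32.9% of all genes. *Bcl2l2*, *Bak1*, *Bok*, *Bcl2l11* and *Bmf* overlapped between treated and untreated libraries, with log2 fold changes from -0.39 to 0.11.

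The treated libraries of D4H8 were uneven. Replicate 2, the library with the highest mitochondrial share, was the lowest of its group for 9 of the 10 members, all but *Bcl2*. The gap was widest for *Bcl2l2* (3.70 FPKM against 8.18 and 7.60), *Bok* (3.39 against 5.92 and 8.02), *Bcl2l11* (6.70 against 10.5 and 10.3) and *Bmf* (7.71 against 10.6 and 12.7). Without it *Bid* and *Mcl1* passed, at log2 fold changes of 0.78 (adjusted p = 0.0383) and 0.55 (adjusted p = 0.0346). The share of all genes called without this library is not given here, so these calls cannot be set beside it. The summed MN progenitor markers were at 59.0 to 120 in treated and 231 to 319 in untreated libraries, with *Olig2* at a mean of 6.93 against 98.2. Postmitotic MN markers summed to 109 to 292 against 266 to 465. Dividing cell markers summed to 337 to 487 against 506 to 541, pluripotency markers to 115 to 256 against 57.9 to 247, and feeder fibroblast markers to 10.1 to 28.3 against 5.74 to 13.9. Their part in the higher values of *Bid*, *Mcl1*, *Hrk* and *Bcl2l1* was not tested.

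**Figure D4:**
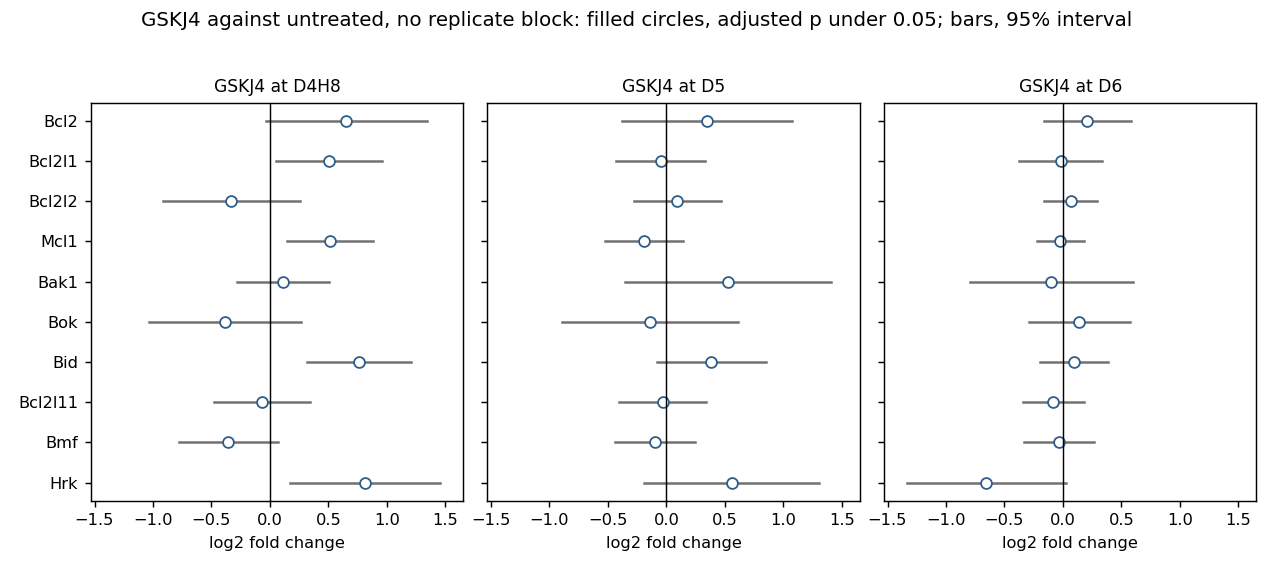
Log2 fold change (x axis) of GSKJ4-treated against untreated libraries for each member (y axis) at D4H8, D5 and D6, from fits without a replicate block, with 95% intervals as bars. All circles are open because no member passed an adjusted p of 0.05, and *Bid* at D4H8 (0.76) came closest.

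At D5 no member was called by edgeR or by DESeq2, and none had an unadjusted p under 0.05 (4.7% of all genes did). Over all genes, edgeR called 0.00613% (1 of 16309). The share that DESeq2 called over all genes is not given here for D5, for D6 or for their difference. *Bak1* read 3.82, 11.3 and 12.5 FPKM untreated and 8.71, 17.4 and 15.0 treated, with a wide interval (log2 fold change 0.53, 95% interval -0.36 to 1.41). *Hrk* was at 2.44, 1.25 and 1.5 FPKM untreated and 3.01, 1.84 and 3.05 treated, and *Bid* at 5.35, 5.53 and 7.31 and 6.67, 8.11 and 9.75. Both pairs of groups overlapped, with log2 fold changes of 0.56 (95% interval -0.19 to 1.31) and 0.38 (95% interval -0.08 to 0.85). The intervals of the 4 survival genes ran from -0.53 to 1.08 in all, and *Bcl2* had the widest.

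At D6 *Hrk* was lower under GSKJ4 in each of the 3 replicate numbers. It went from 28.1 to 19.0 FPKM in replicate 1, from 17.5 to 11.6 in replicate 2 and from 19.6 to 10.9 in replicate 3. Untreated and treated ranges overlapped, because replicate 1 was the highest in both groups. Without a replicate block the log2 fold change was -0.65 (SE 0.29, adjusted p = 1.0), and 0.0% of 16301 genes were called. Same-numbered libraries deviated together at this stage, with correlations of 0.754, 0.429 and 0.571. With the replicate number as a block, *Hrk* fell 1.59-fold by edgeR's test (-0.67 on the log2 scale, SE 0.06, adjusted p = 1.38e-06) and was the only member of 10 called, where 1.58% of all genes were called. DESeq2 without the block called no member and no member had an unadjusted p under 0.05, where 1.36% of all genes did. Even after this fall, treated D6 libraries held 10.9 to 19.0 FPKM of *Hrk*, above the 3.05 of the highest library at any earlier stage. The other 9 members had log2 fold changes between -0.10 and 0.21 without the block. *Mcl1* at D6 was measured closely, with 59.4, 68.0 and 66.0 FPKM untreated, 58.6, 67.2 and 65.5 treated, and an interval of -0.22 to 0.18.

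**Figure D5:**
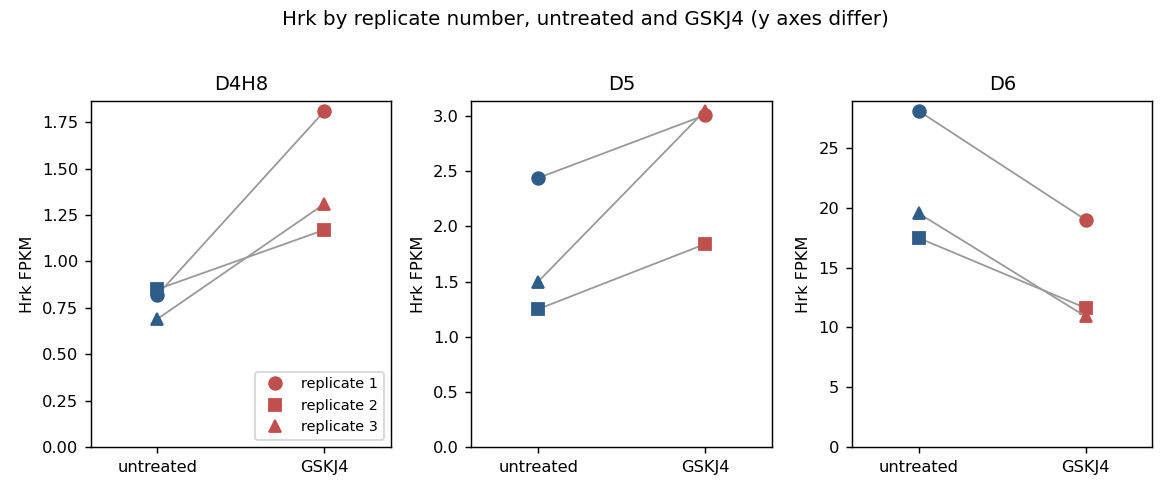
*Hrk* FPKM (y axis, linear from 0, scale differs by panel) in untreated and GSKJ4-treated libraries (x axis) at D4H8, D5 and D6, with lines that join libraries of the same replicate number. The lines rise at D4H8 and D5 and fall at D6, where they run from 28.1 to 19.0, 17.5 to 11.6 and 19.6 to 10.9. Correlations of same-numbered libraries were all over 0.1 only at D6 among these 3 stages.

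Whether the GSKJ4 effect differed between stages was tested directly. No member was called by edgeR without a replicate block in any of the 3 differences. For D5 against D4H8, 0.249% of all genes were called. At an unadjusted p under 0.05 there were 2 members and 10.0% of all genes, and DESeq2 called 1 member and 1.35% of all genes. For D6 against D5, 0.0% of all genes were called, 1 member and 1.98% of all genes had an unadjusted p under 0.05, and DESeq2 called no member. For D6 against D4H8, 0.735% were called, 3 members and 13.7% of all genes had an unadjusted p under 0.05, and DESeq2 called 2 members and 3.75% of all genes. *Hrk* gave the largest difference, -1.45 on the log2 scale between D6 and D4H8 (SE 0.44, adjusted p = 0.144), and -1.19 between D6 and D5 (SE 0.43, adjusted p = 1.0). With a replicate block the difference between D6 and D4H8 was called, at -1.46 (adjusted p = 0.00741), where 2.71% of all genes were, although replicate numbers did not pair the libraries of D4H8 by the same check. It was also called without a filter on low counts (adjusted p = 0.00163), where the share of all genes called is not given here. *Mcl1* differed by -0.72 between D5 and D4H8 (SE 0.19, adjusted p = 0.141) and by -0.53 between D6 and D4H8 (SE 0.19, adjusted p = 0.216), and *Bid* by -0.66 between D6 and D4H8 (SE 0.24, adjusted p = 0.215). DESeq2 called *Mcl1* in both of its differences (adjusted p = 0.00882 and 0.0436) and *Hrk* between D6 and D4H8 (adjusted p = 0.0389).

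Genes around the family were followed by fixed lists. Of 12 further Bcl2 family genes 7 were tested. From D4 to D6, where 32.9% of all genes were higher and 31.0% lower, none rose and 2 fell. These were *Bcl2l12* (log2 fold change -1.78, SE 0.22, adjusted p = 7.4e-06), from 12.8 ± 1.77 to 3.58 ± 1.36 FPKM (SD, n = 3), and *Bcl2l14*, a gene of 18.1 reads on average that was named after its values were seen (-1.82, adjusted p = 0.0357). Of the 7 tested, 1 was lower under GSKJ4 at D4H8, where 3.96% of all genes were called in either direction. It was *Bnip3*, a hypoxia-responsive mitophagy gene also named after its values were seen (log2 fold change -2.05, adjusted p = 0.0136). The median log2 fold change of the 7 from D4 to D6 was -0.16, against -0.04 for all genes.

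Of 11 apoptosome and caspase genes all were tested, and 3 rose and 5 fell from D4 to D6 (median log2 fold change -0.22). These and the following counts stand beside 32.9% of all genes higher, 31.0% lower and a median of -0.04 over all genes. *Casp9*, the initiator caspase activated on the apoptosome, rose from 5.94 to 12.9 FPKM on average (log2 fold change 1.2, SE 0.13, adjusted p = 2.49e-06). *Dffa*, the inhibitor of the caspase-activated DNase, rose from 9.55 to 21.4 FPKM (log2 fold change 1.22, SE 0.10, adjusted p = 2.27e-07). *Casp8*, the death receptor caspase that cleaves Bid, fell from 3.54 to 0.847 FPKM (log2 fold change -2.01, SE 0.31, adjusted p = 7.33e-05). *Cycs*, which encodes the somatic cytochrome c that assembles the apoptosome, fell from 40.4 to 19.8 FPKM (log2 fold change -0.997, SE 0.25, adjusted p = 0.00291). Of the 6 mitochondrial pore partners none rose and 2 fell (median -0.26), *Aifm1*, which encodes apoptosis-inducing factor (-0.72, adjusted p = 0.000873), and *Vdac2*, an outer membrane channel that binds Bak1 (-0.36, adjusted p = 0.00704).

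Of 10 inhibitors of apoptosis and their antagonists 7 were tested, and none rose and 5 fell (median -0.50). The 5 were on both sides, the inhibitors *Birc5*, *Xiap* (-0.47) and *Birc3* (-2.07) and the antagonists *Diablo* (-0.50) and *Htra2*. *Xiap*, *Birc3* and *Diablo* were named after their values were seen. *Birc5*, which encodes survivin and also acts in cell division, fell from 32.0 to 3.99 FPKM (log2 fold change -2.97, SE 0.28, adjusted p = 5.19e-07). *Htra2*, a mitochondrial protease that antagonises the inhibitors, fell from 11.9 to 7.32 FPKM (-0.63, SE 0.14, adjusted p = 0.00166). Of 13 regulators of BH3-only transcription and Mcl1 turnover, 7 rose and 2 fell (median 1.14). *Mapk10*, the neuronal JNK kinase JNK3, rose from 0.0800 to 7.60 FPKM (log2 fold change 6.67, SE 0.26, adjusted p = 1.97e-10), and *Jun*, the transcription factor that JNK phosphorylates, rose from 11.7 to 65.2 FPKM (2.55, SE 0.15, adjusted p = 5.93e-09). *E2f1*, a cell cycle factor, fell from 13.7 to 3.81 FPKM (-1.78, SE 0.20, adjusted p = 2.82e-06), and *Foxo1*, a forkhead factor, from 2.16 to 1.06 FPKM (-0.96, SE 0.28, adjusted p = 0.00855). No gene of these last 4 lists was called under GSKJ4 at any stage without a block.

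Genes whose pattern was most like that of the strongly changing members were ranked over 11119 genes by the correlation of log2 CPM over the 21 libraries. For *Hrk* they were *Nt5dc3* (r = 0.974), *Lingo1* (0.973) and *Mtus2* (0.971). Under GSKJ4 at D6 these 3 had log2 fold changes of -0.12, -0.27 and -0.35 without the block, each smaller than the -0.65 of *Hrk*. For *Bcl2* they were *Met* (0.921), *Ptprt* (0.917) and *Camk2d* (0.910), and for *Bak1* *Syngr2* (0.961), *Rbpms2* (0.957) and *Gng12* (0.954). The points share stages and replicate numbers, so these correlations describe likeness over the course and carry no test.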

How the data were processed

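The authors' count table (whole-number counts of reads per gene) and FPKM table hold 1 column per biological replicate. By the authors' account, Fastp trimmed the reads, HISAT2 placed them on mm10, SAMtools handled the alignments and HTSeq counted them per gene. The FPKM values were computed by the authors from these counts and exonic lengths, and FPKM recomputed here differed from the deposited values by at most 0.005. The counting strand was not given in the sources used here. Symbols and positions came from GENCODE M21 on GRCm38. For the 10 members, 15 RefSeq promoter windows were matched.

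The test was edgeR 4.0.16 (quasi-likelihood, TMM, filterByExpr with a minimum count of 10) in R 4.3.3, with Benjamini-Hochberg adjustment over all tested genes. Stage comparisons shared a fit of the 12 untreated libraries, each GSKJ4 comparison used its own 6, and differences of GSKJ4 effects used 18. Alternatives were DESeq2 1.42.0, other scalings and filters, a replicate block, a fit over 21 libraries, and leaving out each library. The scripts were tested on simulated data. Figures were drawn with matplotlib 3.10.9. Log2 CPM used a prior count of 2.

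The pairing of libraries by replicate number was checked by correlating their deviations from the group means across genes, and was taken to hold where all 3 correlations were over 0.1. This held for GSKJ4 at D6 (0.754, 0.429 and 0.571), for D5 against D4H8 (0.327, 0.166 and 0.152) and for D6 against D5 (0.329, 0.164 and 0.246). The labels give no shared culture for equal numbers. Without a block, p-values measure the spread between these replicates. With the block, they measure only the spread left after differences between replicate numbers are taken out. No pair within a group differed by sampling noise alone (mean chi-square per gene 6.44 or more).

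The members and lists were chosen with earlier results of these data known. All 10 members were described in every comparison. From each further list, up to 2 genes with the largest rise and 2 with the largest fall were named among those with an adjusted p under 0.05 from D4 to D6 and a mean of at least 100 counts. For likeness of pattern, the 3 best correlated genes were named for each member with an absolute log2 fold change of at least 1 from D4 to D6.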

Additional observations from a re-analysis of the deposited data

How the results depend on the processing

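From D4 to D6, 8 members were called in every alternative except upper-quartile scaling, which added *Mcl1*, and 4 were called from D5 to D6 in every alternative, while leaving out single libraries gave 0 to 4 calls from D4H8 to D5 (3 with all libraries) and 0 to 2 for GSKJ4 at D4H8. The fit over 21 libraries lost *Bok* from D4H8 to D5 (adjusted p = 0.0906), where *Bmf* passed with upper-quartile scaling (0.049). From D4 to D4H8, DESeq2 and the replicate block each called 1 member, *Bid* (adjusted p = 0.0359 and 0.0243). For GSKJ4 at D4H8, *Bid* was the 1 member called with DESeq2, without a filter (0.034) and with the replicate block (0.0263), and the fit over 21 libraries called 2 (*Bid* 0.00611 and *Mcl1* 0.0122). Over all alternatives its adjusted p ran from 0.00611 to 0.268. For GSKJ4 at D6 the block called 1, *Hrk*, whose log2 fold change ran from -0.99 to -0.38 as single libraries were left out. The difference of GSKJ4 effects between D6 and D4H8 had 2 calls with DESeq2 and 1, *Hrk*, without a filter (0.00163) and with the block (0.00741), and that between D5 and D4H8 had 1 with DESeq2. Besides *Bid* from D4H8 to D5 (0.0313), the block changed no other call. Besides the main test, the share of all genes called is given only for DESeq2 and the block, and not for every comparison. For the other settings it is not given here, so their counts of members cannot be set beside it. The cause of these changes was not tested. No log2 fold change of a member from D4 to D6 changed sign in any of the 19 alternatives. With CPM in place of FPKM, the *Mcl1* share was 72.9% at D4, 72.4% at D4H8, 70.7% at D5, 58.5% at D6, and 75.7%, 67.6% and 57.7% in treated D4H8, D5 and D6, since CPM is not scaled by length. Depth limits *Hrk* and *Bcl2* most, with as few as 59 and 69 reads in a library.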
